A study of Bos taurus with 11 samples.

Results

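The genes described here are 10 that are known from primitive endoderm or from lipoproteins, namely APOA1, APOA2, APOE, APOM, SOX17, HNF4A, PDGFRA, TTR, FN1 and COL4A1. They were found in the deposited tables through the RefSeq accession of each transcript and the gene symbol it belongs to. Of the 10 genes, 7 were among the 8576 transcripts of the table of GATA3 KO and 8 were among the 12047 transcripts of the table of CDX2 KO. APOA2 and TTR had no row in either table and SOX17 had none in the table of GATA3 KO, so they were not analysed there. A test requires a mean normalized count of at least 10 over the 7 embryos of a table, which APOA1, APOE, HNF4A, PDGFRA, FN1 and COL4A1 reached in both tables. APOM in both tables and SOX17 in the table of CDX2 KO stayed below it.

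Primitive endoderm, also called hypoblast, forms from the inner cell mass (ICM) of the mammalian blastocyst when that mass divides into it and the epiblast. It later forms the visceral endoderm and the lining of the yolk sac, tissues that lay down basement membrane and that secrete apolipoproteins and carrier proteins for the embryo as the liver does in later life. PDGFRA and SOX17 are used to mark these cells, HNF4A is a transcription factor of visceral endoderm and liver, and APOA1, APOE and TTR are among the proteins that such tissues secrete. None of the secreted or matrix proteins is restricted to this lineage.

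The samples were single early blastocysts of cattle, made by fertilization in vitro of oocytes from abattoir ovaries and collected on day 7.0. All 11 embryos had been injected at the putative zygote stage with mRNA of BE3, a cytosine base editor that turns C into T where a guide RNA directs it. The 3 WT control embryos received no guide RNA, the 4 GATA3 KO embryos also received a mixture of GATA3 guides, and the 4 CDX2 KO embryos a mixture of CDX2 guides, in both cases to write a premature stop codon. Editing after injection can differ between the cells of one embryo, so a KO embryo may be mosaic. Each library is 1 whole embryo, and in such bulk samples fewer cells of a type and less RNA per cell cannot be told apart. The sources used here do not say whether the embryos of a group came from separate rounds of fertilization, and p-values measure only the spread between these embryos.

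Each knockout was compared with the WT control embryos within its own table, because the tables were normalized separately. The same 3 WT control libraries serve both comparisons, so the comparisons are not independent. GATA3 KO embryos are called 3 to 6 and CDX2 KO embryos 2 to 5, after the numbers their columns carry. Total reads per embryo were between 150057 and 540775 for the table of GATA3 KO and between 100731 and 662962 for the table of CDX2 KO. A floor of 3 reads corresponded to a normalized count of 1.29 to 4.66 in the first table and of 1.61 to 6.99 in the second, and it covers counting error only, since PCR copies carry no molecular identifiers. The targeted transcript was lower in every KO embryo than in every WT control embryo. GATA3 was at 12.2 ± 1.58 (SD, n = 4) against 79.9 ± 8.17 (SD, n = 3) in the table of GATA3 KO. CDX2, near the floor, was at 3.57 ± 1.34 (SD, n = 4) against 8.94 ± 2.09 (SD, n = 3) in the table of CDX2 KO. CDX2 was also below every WT control embryo in GATA3 KO, at 2.20 ± 1.52 (SD, n = 4) against 7.16 ± 2.53 (SD, n = 3), so its fall was not particular to CDX2 KO. Unlike these values, the study reported no obvious change of either transcript in its knockout. Reads of Y-linked genes were found in all WT control embryos, 49 to 137 per embryo in the table of GATA3 KO, and at 83 in GATA3 KO embryo 6, whereas the other GATA3 KO embryos had 0 to 8. Among CDX2 KO embryos, embryo 5 had 264 Y-linked reads and the others had 2 or 3, where WT control embryos had 88 to 222. Such reads mark male embryos, so embryo sex and knockout can hardly be told apart in either comparison.

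APOA1 fell in GATA3 KO embryos, and it was the 1 member of the 6 tested that passed the threshold in that comparison. Its mean normalized count was 3.13-fold higher in WT control than in GATA3 KO embryos, and all 4 GATA3 KO embryos lay below all 3 WT control embryos. COL4A1 was also below WT control in all 4 GATA3 KO embryos but did not pass the test. Values of FN1 overlapped between the groups. FN1 gave the most reads of the members, but without transcript lengths the levels of different genes were not compared. In CDX2 KO embryos 0 of the 6 tested members passed the threshold, and every member overlapped with WT control. To pass, a transcript needed an adjusted p no larger than 0.05 and a fold change no smaller than 1.5, or no larger than 0.6 when lower.

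APOA1 (NM_174242) encodes the main protein of high-density lipoprotein particles, which take up cholesterol from cells. In the table of GATA3 KO its normalized count was 136, 168 and 59.1 in WT control embryos 1 to 3, against 39.1, 50.4, 42.9 and 22.2 in GATA3 KO embryos 3 to 6. These values rest on 38 to 172 reads in WT control and on 27 to 117 reads in GATA3 KO embryos. The WT control embryos differed among themselves by 2.84-fold, and their lowest value lay only a little above the highest GATA3 KO value. The means were 121 ± 55.7 (SD, n = 3) and 38.6 ± 11.9 (SD, n = 4), with a log2 fold change of -1.55 on the scale of log2(normalized count + 1), a standard error of 0.35 and a 95% interval from -2.28 to -0.82 (limma, Benjamini-Hochberg adjusted p = 0.0295 over all transcripts tested). The difference in means had p = 0.029 in a two-sided exact permutation test over the 35 splits of 7 embryos, which is as small as 3 embryos against 4 can give.

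The call of APOA1 was kept in all 10 alternative analyses, with log2 fold changes from -1.77 to -1.46 and adjusted p from 8.6e-04 to 0.0348. It was lost when WT control embryo 2 was left out, with -1.25 on the log2 scale (limma, adjusted p = 0.173), and when GATA3 KO embryo 3 was left out, where the log2 fold change of -1.58 was as large as with all embryos (limma, adjusted p = 0.087). GATA3 KO embryo 6, the one with Y-linked reads as in the WT control embryos, had the lowest APOA1 value of all, on 27 reads. The parts of embryo sex and knockout cannot be told apart on this single embryo. With the presence of Y-linked reads as a covariate, where this one embryo carries the comparison, the log2 fold change was -2.27 (limma, adjusted p = 0.172). Of all 4271 transcripts tested in this comparison, 2.01% were called in either direction, 1.55% higher and 0.468% lower, and a count of 1 in 6 members is too small to set against these shares.

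**Figure D1:**
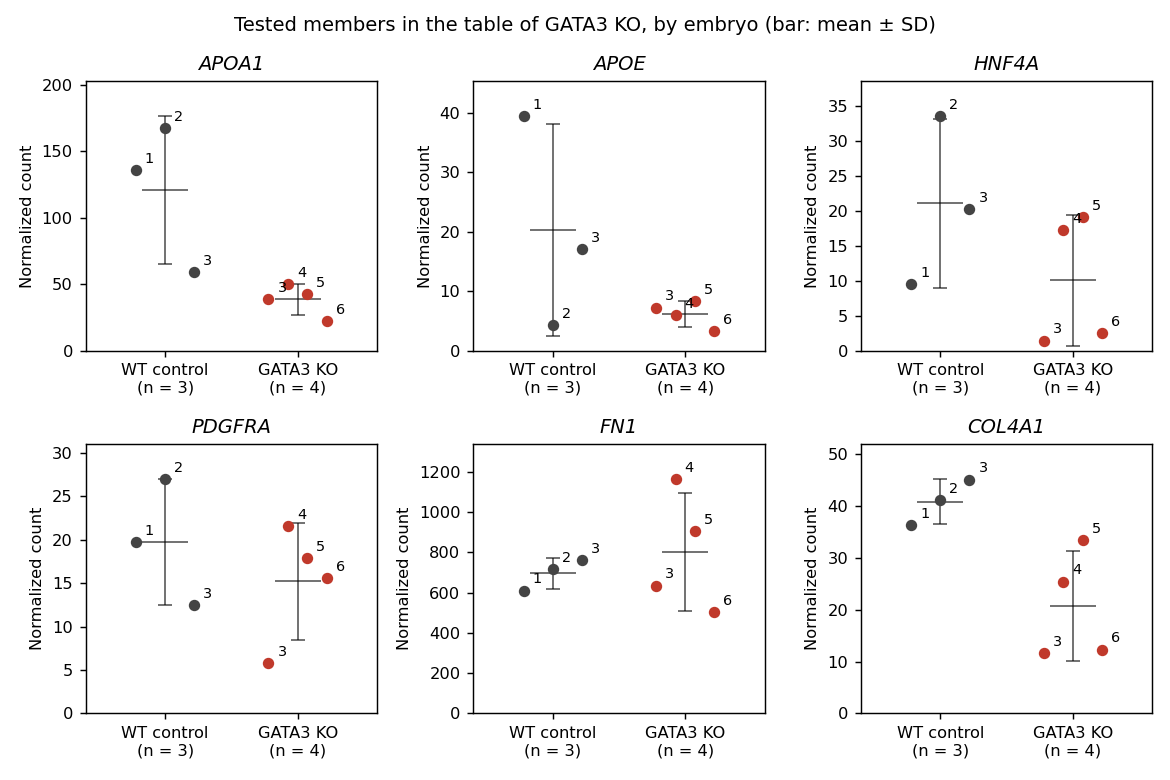
Normalized counts (vertical axes, linear, a scale of its own for each gene) of the 6 tested members in the table of GATA3 KO, one point per embryo with its number, with the mean and SD of the 3 WT control and 4 GATA3 KO embryos. APOA1 and COL4A1 show no overlap between the groups, whereas FN1, APOE, HNF4A and PDGFRA do.

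APOE (NM_173991) encodes the apolipoprotein through which lipoprotein remnants bind receptors of the LDL receptor family. Its normalized count was 39.5, 4.3 and 17.1 in WT control embryos 1 to 3, against 7.2, 6.0, 8.3 and 3.3 in GATA3 KO embryos 3 to 6. The spread lay in the WT control group, whose highest and lowest embryos differed by 9.13-fold, on 50 and 4 reads, so that 1 of the 4 GATA3 KO embryos lay below all of them. The log2 fold change was -1.18 (95% interval -2.46 to 0.10, limma, adjusted p = 0.258). APOE reached the mean of 10 only through its WT control embryos, with means of 20.3 in WT control and 6.22 in GATA3 KO, and did not reach it without WT control embryo 1. Without WT control embryo 2 the log2 fold change was -1.96, and edgeR gave -1.86 (adjusted p = 0.0626). APOM, a carrier of sphingosine 1-phosphate on lipoprotein particles, was at or near the floor, with 1 to 4 reads in every embryo of this table, and no difference was detectable at this depth.

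HNF4A (NM_001015557) encodes a nuclear receptor that activates apolipoprotein genes, APOA1 among them, in liver and visceral endoderm. Its normalized count was 9.5, 33.5 and 20.2 in WT control embryos 1 to 3, against 1.4, 17.2, 19.1 and 2.5 in GATA3 KO embryos 3 to 6. GATA3 KO embryos 3 and 6, with 1 and 3 reads, lay below all WT control embryos, while embryos 4 and 5 lay within their range. The log2 fold change of -1.40 had a 95% interval from -2.82 to 0.02 (limma, adjusted p = 0.227). The values of embryos 3 and 6 are at or under the floor of 3 reads, so no ratio is given within that group.

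PDGFRA (NM_001192345), the receptor for platelet-derived growth factor that marks primitive endoderm, had normalized counts of 19.7, 27.0 and 12.4 in WT control embryos 1 to 3. In GATA3 KO embryos 3 to 6 they were 5.8, 21.5, 17.9 and 15.6, so that embryo 3 lay below all WT control embryos on 4 reads and the others lay within the range of WT control. The log2 fold change was -0.42 (95% interval -1.30 to 0.45, limma, adjusted p = 0.573).

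FN1 (NM_001163778) encodes fibronectin, a matrix protein to which cells attach through integrins, and COL4A1 (NM_001166511) encodes a chain of collagen IV, the network collagen of basement membranes. FN1 had normalized counts of 610.0, 715 and 762 in WT control embryos 1 to 3, against 635, 1165, 904 and 505 in GATA3 KO embryos 3 to 6. It was even among WT control embryos, with a coefficient of variation of 11.2%, and uneven among GATA3 KO embryos, at 36.6%, where embryos lay both above and below WT control. The log2 fold change was 0.14 (95% interval -0.42 to 0.70, limma, adjusted p = 0.790). On 439 to 2705 reads per embryo, FN1 had the narrowest interval of the members in this comparison.

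COL4A1 had normalized counts of 36.3, 41.1 and 45.1 in WT control embryos 1 to 3, against 11.6, 25.4, 33.3 and 12.3 in GATA3 KO embryos 3 to 6. The WT control embryos were close together, with a coefficient of variation of 10.8%, and all 4 GATA3 KO embryos lay below them, embryo 5 only just. The means differed by 1.98-fold, with a log2 fold change of -1.08 and a 95% interval from -1.82 to -0.34, but the adjusted p of 0.0901 from limma did not pass the threshold (unadjusted p = 0.00672, two-sided exact permutation test p = 0.057). Its adjusted p lay between 0.0638 and 0.0973 in the alternative analyses. APOA1 and COL4A1 were thus the 2 tested members whose GATA3 KO embryos all lay below WT control. Of all transcripts tested, 7.05% lay all below, 11.9% all above and 18.9% one or the other.

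**Figure D2:**
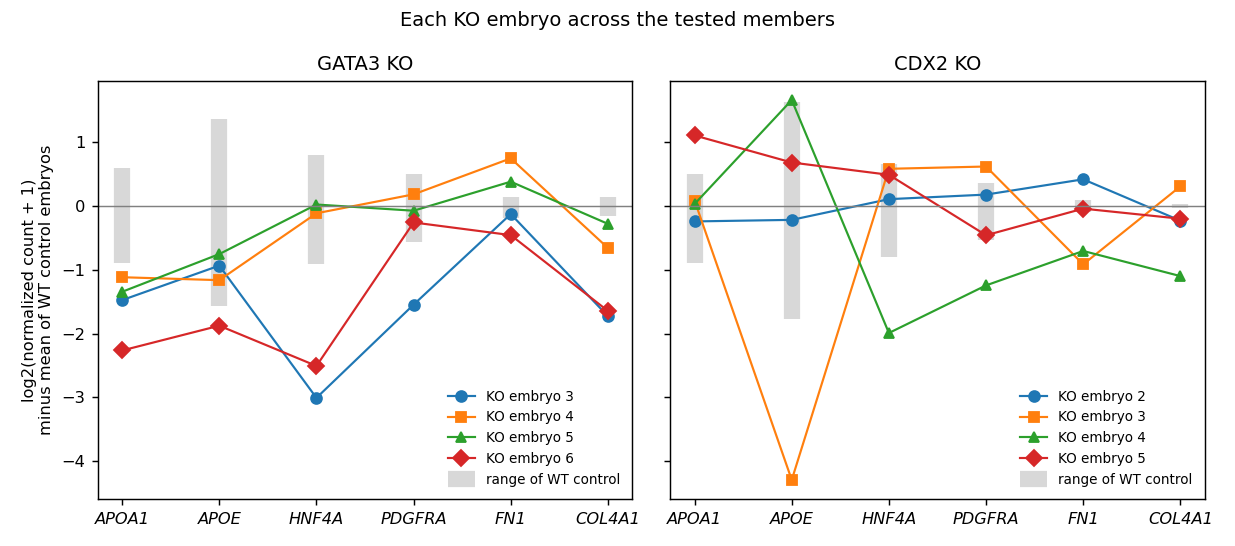
Each KO embryo as a line across the 6 tested members, as log2(normalized count + 1) minus the mean of the WT control embryos of the same table (vertical axis), with grey bars from the lowest to the highest of the 3 WT control embryos. In GATA3 KO, embryos 3 and 6 lie below embryos 4 and 5 for every tested member but APOE, and in CDX2 KO the lines cross.

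The GATA3 KO embryos were not alike in these genes. Embryos 3 and 6 both lay below embryos 4 and 5 for 5 of the 6 tested members, APOA1, HNF4A, PDGFRA, FN1 and COL4A1, with APOE as the exception. Embryo 3 had the lowest COL4A1, HNF4A and PDGFRA, and embryo 6 the lowest APOA1, APOE and FN1. This ordering was noticed after the values were seen and was not tested. Total reads were 166529 and 303320 in embryos 3 and 6 and 540775 and 205636 in embryos 4 and 5, and their part in it was not tested. NANOG, a transcription factor of the epiblast, had normalized counts of 0, 7.32, 13.1 and 21.3 in GATA3 KO embryos 3 to 6, so that embryos 3 and 6 were its lowest and its highest.

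Across the 7 embryos of the table of GATA3 KO, the log2 values of the tested members had Pearson's r from -0.04 to 0.92 over 15 pairs, with a median of 0.49. HNF4A and COL4A1 were the closest pair, at 0.92. In the table of CDX2 KO the 15 pairs ran from -0.71 to 0.83 with a median of 0.13, where PDGFRA and COL4A1, at 0.83, and HNF4A and COL4A1, also at 0.83, were the closest and PDGFRA and APOE, at -0.71, the furthest apart. Those of APOE in the table of CDX2 KO include its 0 in CDX2 KO embryo 3, a value under the floor. These coefficients describe 7 embryos that share libraries and scaling, and in the table of GATA3 KO they include the difference between the groups.

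In the table of CDX2 KO, APOA1 had normalized counts of 207, 224 and 84.8 in WT control embryos 1 to 3, against 134, 168, 162 and 342 in CDX2 KO embryos 2 to 5. All but embryo 5 of the CDX2 KO embryos lay within the range of WT control, and embryo 5, the CDX2 KO embryo with Y-linked reads, lay above it, on 637 reads. In CDX2 KO the log2 fold change of APOA1 was 0.25 (95% interval -0.78 to 1.27, limma, adjusted p = 0.937). That interval does not reach the log2 fold change of -1.55 seen in GATA3 KO embryos, but the difference between the knockouts itself was not tested, because the tables were scaled separately and share their control embryos. None of the 5719 transcripts tested was called in this comparison by limma, a background of 0%, while 187 had an unadjusted p under 0.05, and edgeR and DESeq2 on the recovered reads called 1 and 9.

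**Figure D3:**
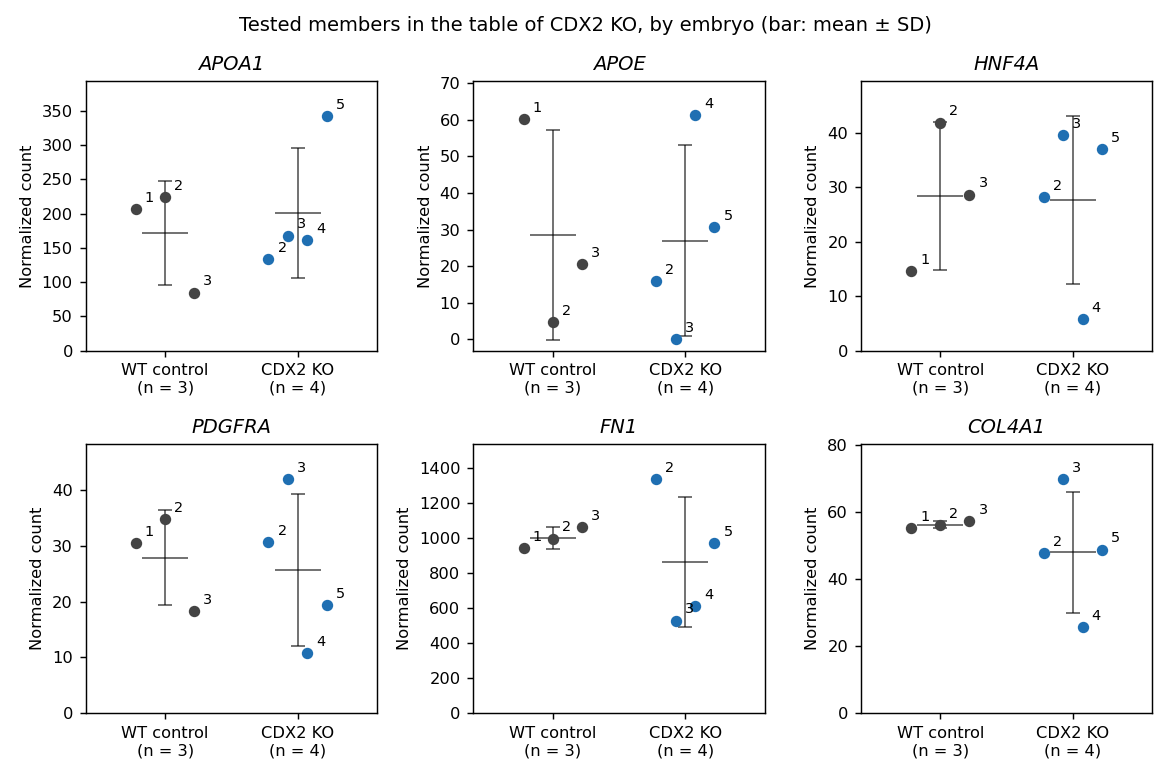
Normalized counts (vertical axes, linear, a scale of its own for each gene) of the 6 tested members in the table of CDX2 KO, one point per embryo with its number, with the mean and SD of the 3 WT control and 4 CDX2 KO embryos. The groups overlap for every gene, and APOA1 is highest in CDX2 KO embryo 5, at 342.

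APOE was the least even of the members in this table, at 60.3, 4.7 and 20.6 in WT control embryos 1 to 3, against 15.9, 0.0, 61.4 and 30.6 in CDX2 KO embryos 2 to 5. The 0 was found in CDX2 KO embryo 3, the embryo with the fewest reads, where a count of 0 allows a normalized count of up to 6.99. The log2 fold change of -0.54 had an interval from -3.04 to 1.96 (limma, adjusted p = 0.941), and its sign changed with the scaling and with the embryos included. APOM lay near the floor, on 1 to 7 reads (mean log2 higher by 0.63 in CDX2 KO, exact two-sided permutation test p = 0.114).

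SOX17, the transcription factor that marks primitive endoderm, was found on 4, 3 and 0 reads in WT control embryos 1 to 3, against 2, 1, 3 and 0 reads in CDX2 KO embryos 2 to 5. At 0 to 2.5 normalized counts it was at or under the floor in every embryo but WT control embryo 1, and its difference could not be resolved at this depth. HNF4A had normalized counts of 14.6, 41.9 and 28.7 in WT control embryos 1 to 3, against 28.2, 39.6, 5.8 and 37.0 in CDX2 KO embryos 2 to 5 (log2 fold change -0.20, 95% interval -1.52 to 1.12, limma, adjusted p = 0.958). The CDX2 KO embryos lay within the range of WT control except embryo 4.

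PDGFRA showed the same low embryo, with 30.4, 34.8 and 18.3 in WT control embryos 1 to 3, against 30.6, 41.9, 10.8 and 19.3 in CDX2 KO embryos 2 to 5 (log2 fold change -0.22, 95% interval -1.28 to 0.83, limma, adjusted p = 0.942). COL4A1 was again lowest in embryo 4 and highest in embryo 3, at 47.8, 69.9, 25.7 and 48.9 in CDX2 KO embryos 2 to 5. In WT control embryos 1 to 3 it was 55.2, 56.1 and 57.3, a coefficient of variation of 1.90% against 37.6% in CDX2 KO. Its log2 fold change was -0.30 (95% interval -1.20 to 0.60, limma, adjusted p = 0.923).

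FN1 was at 939, 996 and 1061 in WT control embryos 1 to 3, against 1336, 529, 612 and 971 in CDX2 KO embryos 2 to 5. As for COL4A1, the CDX2 KO embryos spread around the narrow WT control group, with coefficients of variation of 42.9% and 6.11%, and the log2 fold change was -0.31 (95% interval -1.22 to 0.60, limma, adjusted p = 0.923). CDX2 KO embryo 4 had the lowest COL4A1, HNF4A and PDGFRA and the highest APOE, whereas embryo 3 had the highest COL4A1, HNF4A and PDGFRA and the lowest APOE and FN1. NANOG was 4.90, 27.96, 0 and 13.96 in CDX2 KO embryos 2 to 5, so that its highest and its lowest embryo were the same 2, which is a description of 4 embryos on 0 to 26 reads.

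Set side by side, the members had a median log2 fold change of -1.13 in GATA3 KO, with 1 higher and 5 lower, and of -0.26 in CDX2 KO, also with 1 higher and 5 lower. The medians of all transcripts tested were 0.11 and -0.15. The median in GATA3 KO includes APOE, which entered the test through its WT control embryos. The transcript that was higher differed, FN1 in GATA3 KO and APOA1 in CDX2 KO, and neither passed the test. In CDX2 KO none of the 6 members lay all above or all below WT control, where 2.52% and 3.36% of all transcripts tested did, 5.88% in all.

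**Figure D4:**
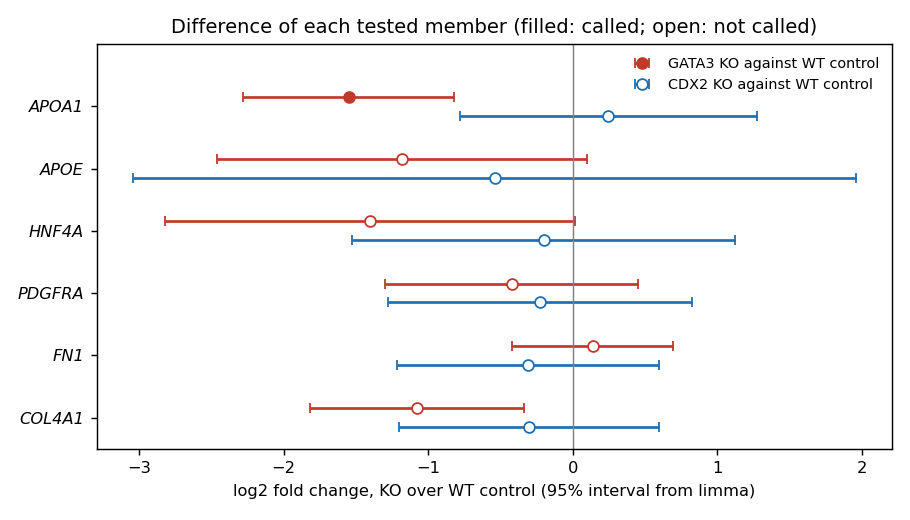
Log2 fold change of KO over WT control (horizontal axis) with its 95% interval from limma for the 6 tested members in both comparisons, filled where the threshold was passed. APOA1 in GATA3 KO, at -1.55, is the filled point, and the interval of COL4A1 in GATA3 KO also lies below 0 without passing after adjustment.

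Other genes of the same biology were taken from lists. Of 15 other apolipoproteins, 3 had a row in the table of GATA3 KO and 8 in that of CDX2 KO, and APOO, a protein of the mitochondrial inner membrane that is named for its likeness to apolipoproteins, was the 1 tested in each. It was 13.5 ± 5.70 (SD, n = 3) in WT control, against 38.7 ± 17.7 (SD, n = 4) in GATA3 KO embryos. The direction was opposite to that of APOA1 (log2 fold change 1.40, limma, adjusted p = 0.0634). GATA3 KO embryos 3 to 5 had 57.9, 44.4 and 36.9, above the WT control values of 7.56 to 18.9. Embryo 6, the one with Y-linked reads, had 15.6, within the WT control values, and the part of embryo sex was not tested. In CDX2 KO embryos 2 to 5 APOO was 2.45, 0, 39.8 and 33.8, on both sides of the WT control values of 11.1 to 28.5 (log2 fold change -1.24, limma, adjusted p = 0.900). APOA5, APOA4 and APOC3, the genes next to APOA1 in the cattle annotation, had a row in the table of CDX2 KO alone and were at or near the floor. CLU, which encodes clusterin, was above all WT control embryos in 3 of 4 KO embryos of both tables at low counts.

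Of 25 genes for lipoprotein assembly, remodelling and uptake, 9 were tested in GATA3 KO and 12 in CDX2 KO, and 0 passed the threshold in either. Their medians were -0.47 and -0.29, with 7 and 9 of them lower. LRPAP1, the chaperone of LDL receptor family proteins, had a log2 fold change of -0.78 in GATA3 KO (limma, adjusted p = 0.210), and DAB2, the adaptor that takes these receptors into the cell, had 0.23 (limma, adjusted p = 0.638).

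Of 37 other markers of primitive and visceral endoderm, 4 were tested in GATA3 KO and 7 in CDX2 KO, and none passed. The medians were 0.40 and 0.01. That in GATA3 KO rests on 4 genes, 3 higher and 1 lower, too few to set against the direction of the members. SPARC, a collagen-binding matrix protein made in quantity by parietal endoderm, differed by -0.15 and 0.53 on the log2 scale (limma, adjusted p = 0.8289 and 0.900). The homeobox gene OTX2 lay above WT control in all 4 GATA3 KO embryos (log2 fold change 0.81, limma, adjusted p = 0.147). It was the 1 of the 4 tested that did, where 11.9% of all transcripts tested lay all above. The summed level of these markers was 430 to 627 in WT control and 420 to 636 in GATA3 KO embryos. It was made up largely of DAB2, at 168 to 346 and 215 to 337, and SPARC, at 97.3 to 242 and 76.7 to 226. DAB2 was also in the list of trophectoderm markers, so that this sum is not one of endoderm alone.

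TTR carries retinol-binding protein, and with it vitamin A, in plasma, and genes of this route were read in its place. RBP4, the retinol-binding protein, had 0, 0 and 1 reads in WT control embryos 1 to 3, against 3 to 5 reads in each GATA3 KO embryo, and 0, 0 and 2 against 2 to 20 reads in the table of CDX2 KO. STRA6, its receptor, went the other way in GATA3 KO, with 3, 16 and 5 reads in WT control and 0 or 1 in GATA3 KO embryos. RBP4 in both tables and STRA6 in that of GATA3 KO were below the mean required for the test. Both genes were also in the list of other endoderm markers. In all 4 GATA3 KO embryos RBP4 lay above WT control and STRA6 below it.

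Of 35 genes for basement membrane and the partners of fibronectin, 11 and 16 were tested and 0 passed, with medians of -0.15 and -0.12. ITGA5, the integrin subunit of the main fibronectin receptor, was 133 ± 28.8 (SD, n = 3) in WT control, against 72.3 ± 5.83 (SD, n = 4) in GATA3 KO embryos, all 4 of which lay below WT control, while FN1 itself overlapped (log2 fold change -0.85, limma, adjusted p = 0.0623). The laminin-binding integrin subunit ITGA3 was the other tested gene of the list below WT control in all 4 embryos, which makes 2 of 11, where 7.05% of all transcripts tested lay all below. COL4A3, another collagen IV chain, lay below WT control in all 4 GATA3 KO embryos on 0 to 10 reads, and COL4A2, the neighbour and partner of COL4A1, had no row. The collagen chaperone SERPINH1 lay above WT control in all 4 CDX2 KO embryos, at 14.0 ± 5.73 (SD, n = 4) against 2.98 ± 1.85 (SD, n = 3), below the mean required for the test.

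Of 35 genes of FGF and PDGF signalling, 9 and 12 were tested and 0 passed, with medians of -0.11 and -0.04. In GATA3 KO, MAP2K2, a kinase of the ERK cascade, lay below WT control in all 4 embryos (log2 fold change -0.62, limma, adjusted p = 0.203), and PIK3CA, the catalytic subunit of a PI3 kinase, lay above it (log2 fold change 1.06, limma, adjusted p = 0.197). PIK3CA reached the mean of 10 only through its GATA3 KO embryos. Of the 9 tested, 1 thus lay all below and 1 all above WT control, where 7.05% and 11.9% of all transcripts tested did. ETV5 and PDGFRB, both on at most 9 reads, lay below WT control in all 4 GATA3 KO embryos.

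**Figure D5:**
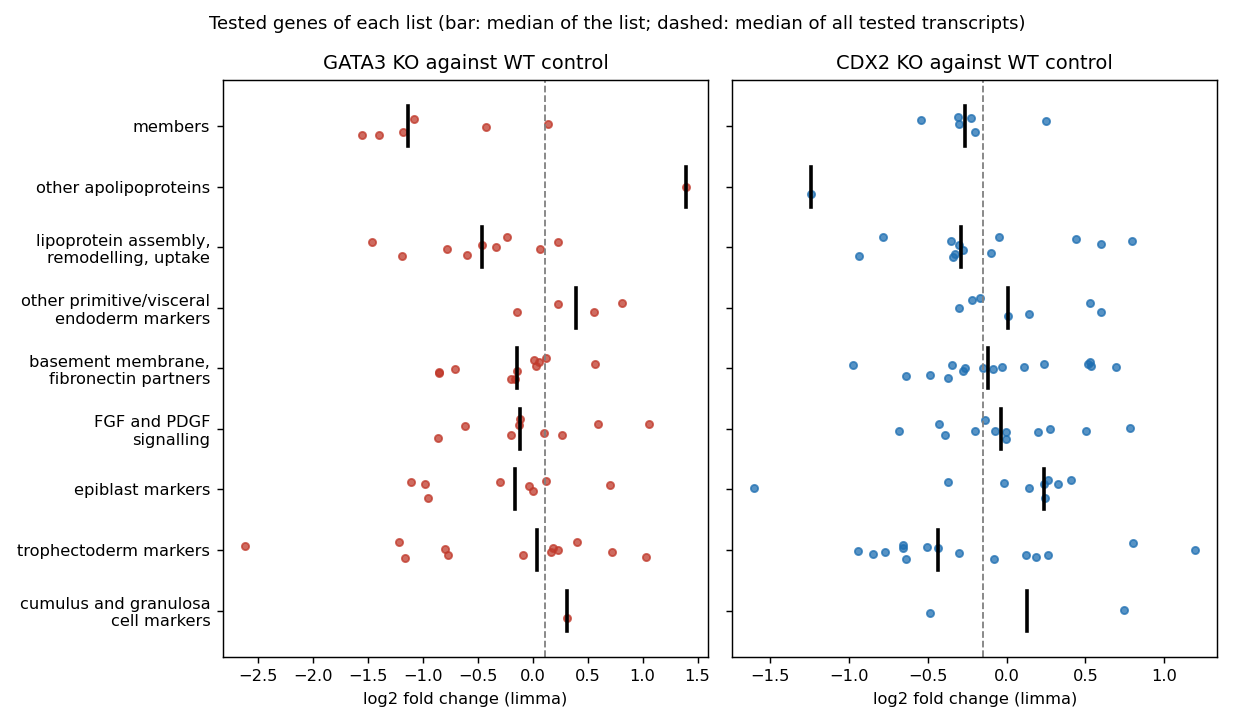
Log2 fold changes (horizontal axes, limma) of the tested genes of each list in both comparisons, one point per gene, with a bar at the median of the list and a dashed line at the median of all transcripts tested (0.11 and -0.15). The members lie furthest below the dashed line in GATA3 KO among lists with more than 1 tested gene, at a median of -1.13, and close to it in CDX2 KO.

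Markers of other cell types were read beside APOA1. The 6 listed genes of 19 for cumulus and granulosa cells summed to 38.9 to 57.6 in WT control and to 14.0 to 28.6 in GATA3 KO embryos, lower in all 4 as APOA1 was, with at most 1 of the 6 at 0 in an embryo. Different genes made up that sum, since HSD3B1 was 43.4, 1.08 and 0 in WT control embryos 1 to 3 and COL1A1 was 2.37, 20.5 and 10.9. HSD3B1 was 5.8, 5.6, 21.4 and 0 in GATA3 KO embryos 3 to 6. It was the 1 gene of the list that was tested, which it owed to WT control embryo 1, and its mean was higher in WT control on the linear scale, at 14.8 against 8.21, but not on the log2 scale (limma, log2 fold change 0.32, adjusted p = 0.902). Of the others, COL1A1 overlapped between the groups, and FSHR, on 1 to 5 reads, was lower in all 4 GATA3 KO embryos. The methods of the study remove cumulus cells from the putative zygotes by pipetting and the zona pellucida from the blastocysts by pronase, and the part of such cells in the difference of APOA1 was not tested. In the table of CDX2 KO the 17 listed genes of the list summed to 92.8 to 112 in WT control and to 190.0, 179, 75.5 and 69.3 in CDX2 KO embryos 2 to 5, with the lowest sum in embryo 5, where APOA1 was highest. The summed epiblast markers were 245 to 297 in WT control and 181 to 287 in GATA3 KO embryos, and none of the 8 tested passed. SALL4, a zinc finger factor of pluripotent cells, was 41.1 ± 7.52 (SD, n = 3) in WT control, against 21.0 ± 6.29 (SD, n = 4) in GATA3 KO embryos. It was lower in all 4 as APOA1 was (log2 fold change -0.98, limma, adjusted p = 0.0851). Of the 8 tested it was the 1 that lay all below, where 7.05% of all transcripts tested did. Of the 12 trophectoderm markers tested, 3 passed in GATA3 KO, where 2.01% of all transcripts did. GATA3, 1 of these 3, is the edited gene itself, so the count is not read against that share. GATA3 and GATA2 were lower and TFAP2C higher (limma, adjusted p = 7.64e-05, 0.0344 and 0.0442). The calls of GATA2 and TFAP2C were lost in settings that include those in which that of APOA1 was, without WT control embryo 2, without GATA3 KO embryo 3 and with the covariate for Y-linked reads. In these 3 settings GATA3 was the 1 transcript still called. The summed level overlapped, at 3743 to 8478 in WT control and 4204 to 5913 in GATA3 KO embryos. ELF3 and CDX2 in GATA3 KO, and EOMES, IFNT2, DIO2 and APOA5 in CDX2 KO, lay below WT control in all 4 embryos at means too low for the test.

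FN1 had the highest mean normalized count of the members, and the 5 transcripts with the pattern most like it across the 7 embryos of the table of GATA3 KO were SMNDC1, with Pearson's r of 0.93, and UTP14A, CHCHD7, ESRP2 and SEC61B, with r of 0.88. In the table of CDX2 KO they were GET4, LOC515578, NIPBL, AKT2 and WRAP53, with r from 0.93 to 0.97. For APOA1, added after its values were seen, the closest in the table of GATA3 KO were TNS1, with r of 0.99, and PLCB3, EPN1, TOM1 and TMEM86A, with r of 0.93 or 0.94. In the table of CDX2 KO they were other genes, RGL2, EIPR1, AP2A1, AZIN1 and GUF1, with r from 0.93 to 0.95. All these are the highest of many coefficients over 7 embryos, and they include the difference between the groups. None of the 5 named for a gene in a table was another member.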

How the data were processed

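RNA of 11 single blastocysts was sequenced with Smart-seq2. According to the methods of the study and the submitters' processing notes, the authors trimmed reads with Trimmomatic, mapped them to ARS-UCD 1.2 with HISAT2, counted them with featureCounts and normalized with DESeq2. They deposited 2 tables, each with a knockout and the same 3 WT control embryos. The deposited signal per embryo is a normalized count, that is, a read count divided by a size factor of that table. Further deposited columns give log2 fold changes and their errors, a test score and p-values from the authors' own comparison, and none of these was used. Each WT control column carries its sample's number, whereas a KO column shows its group only. Columns of sample values not used numbered 0.

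Accessions were paired with symbols with the RefSeq gene list for ARS-UCD2.0, and 98.6% of accessions in either table found a symbol. As the files use another build, no coordinates are given. In every column 100.0% of values were whole multiples of one read within 0.01 read, so reads were recovered.

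The main test was limma 3.58.1 (R 4.3.3) run within a table on log2(normalized count + 1) with its trended prior. Transcripts entered it at a mean of 10 or more, and p-values were adjusted over all of them by Benjamini-Hochberg. The study used DESeq2 on raw counts. Here limma was planned as the main test because raw counts were not expected among the deposited values, and DESeq2 on the recovered reads remained an alternative. Fold changes on this scale understate those of low transcripts. A call required an adjusted p no larger than 0.05 together with a fold change outside 0.6 to 1.5. Single members were tested by two-sided exact permutation over 35 splits (Python 3.11.15, numpy 2.4.6, pandas 2.3.3, scipy 1.17.1). Alternatives tried were other pseudocounts (0.1 and 5), other filters (none and a mean of 50), quantile normalization, median-of-ratios rescaling, scaling by total reads, a fold change of 2 or 0.5, edgeR 4.0.16 and DESeq2 1.42.0 on recovered reads, and each embryo left out. A covariate for Y-linked reads (at least 20 in an embryo) was added after the data were seen. The code was tested on simulated counts.

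The members and the gene lists were chosen with earlier results of these data known. Beside the members, the genes named were those of the lists that were called, the 2 of highest mean in a table, and those whose KO embryos all lay outside WT control with a log2 fold change of at least 1, together with the 5 transcripts most correlated with the member of highest level. That member was meant to be chosen per kilobase, and without transcript lengths it was chosen by mean normalized count. Other genes were named after their values were seen. Some genes of the lists are not reported here.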

Additional observations from a re-analysis of the deposited data

Results flagged for a closer look

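A member's 4 KO values were searched for one embryo standing apart in 15 cases, which happened in 2, and about 0.75 would come by chance. APOA1 was 342 in CDX2 KO embryo 5, against 134 to 168 in the other CDX2 KO embryos, on 637 reads. This embryo was also the CDX2 KO embryo with Y-linked reads and the one with the most reads in the table, and their part in the value was not tested. Without it the log2 fold change of APOA1 in CDX2 KO was -0.04. SOX17 was 0.0 in the same embryo, against 2.33 to 2.49 in the others, all of which had at most 3 reads, so that no difference was detectable at this depth.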

How the results depend on the processing

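In GATA3 KO, 1 member was called in the 10 other analyses, and from 0 to 1 when an embryo was left out, the 0 without WT control embryo 2 or GATA3 KO embryo 3. With Y-linked reads as a covariate 0 members were called, and APOA1 was at -2.27. The cause was not tested. In CDX2 KO 0 members were called throughout. The log2 fold change of FN1 in GATA3 KO ran from -0.065 to 0.34 when an embryo was left out, below 0 without embryo 4, and was -0.46 with the covariate. APOA1, COL4A1, HNF4A, APOE and PDGFRA kept their direction in GATA3 KO in every analysis that gave a value.

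In CDX2 KO several signs changed. Leaving out an embryo gave -0.20 to 0.50 for APOA1, -1.43 to 0.71 for APOE, -0.60 to 0.40 for HNF4A and -0.51 to 0.11 for PDGFRA. Quantile normalization gave 0.10 for APOE and 0.014 for FN1, edgeR gave 0.079 for APOE and 0.027 for HNF4A, DESeq2 gave 0.0084 and 0.0793, and the covariate gave 0.68 and 0.49. Over all transcripts, 86 calls in GATA3 KO became 158 with DESeq2, 172 without the filter, 145 with a pseudocount of 5, 1 with the covariate and 1 to 304 with an embryo left out. The 66 higher and 20 lower became 48 and 57 after quantile normalization, 56 and 53 after median-of-ratios rescaling, 57 and 69 with edgeR, 76 and 82 with DESeq2, 100 and 72 without the filter and 101 and 44 with a pseudocount of 5.

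No paired analysis was possible because the KO columns carry numbers of their own, which are not the replicate numbers of the sample labels. DESeq2 gave no adjusted p for APOE in GATA3 KO, and without WT control embryo 1 APOE fell below the required mean. On 1 to 7 reads for APOM and 0 to 4 for SOX17, these genes allow no comparison at these depths.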

Other observations

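The 3 WT control libraries hold more reads in the table of CDX2 KO than in that of GATA3 KO, by 1.86 to 1.88 times in total. The reads of FN1 in the same embryos differed by 1.89 to 1.92 times and those of APOA1 by 1.83 to 1.95 times, close to the totals, so that the order of the WT control embryos in these genes was that of the same libraries in both tables. WT control embryos 1 to 3 differed most in APOE and least in COL4A1 among the tested members of the table of CDX2 KO. APOE was highest in WT control embryo 1 and lowest in embryo 2, whereas HNF4A was lowest in embryo 1 and highest in embryo 2, on 6 to 95 reads in that table.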
